A study of Mus musculus with 2 samples.

Results

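Chemokines are small proteins that steer migrating cells. The 10 chemokine genes described here, Cxcl1, Cxcl2, Cxcl12, Cxcl13, Cxcl14, Cxcl16, Ccl2, Ccl7, Ccl20 and Cx3cl1, were taken by symbol from the 32285 genes of the deposited matrices, and each symbol was found once. They were followed in 2 single-cell RNA libraries of dorsal skin from mice on postnatal day 3. The control library had the genotype Wildtype, the other the genotype miR-200b induced, and both had the treatment Dox, the usual short form of doxycycline. The labels do not name the promoter or the cells in which miR-200b was induced, nor the number of animals behind a library. Epidermis and dermis were separated, dissociated apart and mixed in a fixed ratio before 10x Genomics 3′ capture, so the share of epidermal cells was set at that step.

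With 1 library per group there was no replicate check and no test between the groups. Every interval below is a 95% interval of counting error alone, and a difference described as higher or lower is a difference between these 2 libraries. Filtering left 4816 cells of the control and 4890 of the induced library. A cell held a median of 14612.5 and 17918.5 unique molecular identifiers (UMIs), respectively, and 7 barcodes occurred in both sets. Cell classes were rebuilt from marker genes by clustering that left out all chemokines, so each class name is meant as "-like". Each of the 14 classes expressed at least 10 of its markers. Some epithelial clusters stayed unnamed (189 control and 931 induced cells), and the borders between epithelial classes moved with the clustering: 138 induced cells were called granular here and 47 at a higher resolution. In neither library was a class of T cells, mast cells, neutrophils or Langerhans cells found. Most epithelial clusters came almost wholly from 1 library, so cluster and library can be separated only in the clusters that both libraries shared. Levels are counts per 1e+06 UMIs of the class (CPM). UMIs counted at the 3′ end are not scaled by transcript length. RNA that leaks from other cells during dissociation adds a low level to every class.

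Chemokines bind G protein-coupled receptors on leukocytes, endothelial cells and some stromal and epithelial cells. Cxcl1 and Cxcl2 act through Cxcr2, the main chemoattractant receptor of neutrophils, and Ccl2 and Ccl7 through Ccr2, the receptor of inflammatory monocytes. Cxcl12 is the ligand of Cxcr4, Cxcl13 of the B cell receptor Cxcr5, and Ccl20 of Ccr6 on dendritic and lymphoid cells. Cxcl16 and Cx3cl1 are made as membrane-bound proteins and are read by Cxcr6 and Cx3cr1. Cxcl14 is made constitutively by epithelia, skin included.

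The induced microRNA itself was not measured, because 3′ capture of polyadenylated RNA does not read mature microRNAs. Its mature sequence, from RefSeq on GRCm38.p6 at chr4:156055685-156055706 on the minus strand, is shown with the seed (bases 2 to 8) in capitals, since the seed is what a target transcript would match.
mmu-miR-200b-3p: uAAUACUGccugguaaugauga
The matching letters CAGTATT were searched in the longest annotated 3′ untranslated region of each gene in GENCODE vM21. They occurred in 0 of the 10 chemokines, whose regions were 275 bases (Ccl2) to 5188 bases (Cxcl12) long, against 2760 of 20829 genes (13.3%) with a median length of 959 bases. No match says only that these letters are not in these windows.

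Several of the 10 genes sit in chemokine clusters. Cxcl1 (chr5:90891241-90893115, plus strand) lies 10755 bases before Cxcl2 (chr5:90903871-90905938, plus strand), and Ccl2 (chr11:82035571-82037453, plus strand) lies 8258 bases before Ccl7 (chr11:82045712-82047525, plus strand) in the GRCm38 annotation. The others stand apart. Cxcl13 is at chr5:95956951-95961068 on the plus strand, Cxcl12 at chr6:117168535-117181367 on the plus strand and Cxcl14 at chr13:56288643-56296551 on the minus strand. Cxcl16 is at chr11:70453983-70459984 on the minus strand, Ccl20 at chr1:83116766-83119167 on the plus strand and Cx3cl1 at chr8:94772009-94782427 on the plus strand.

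RefSeq promoters (GRCm38.p6) were found for 7 of the 10 genes, not for Cxcl16, Ccl2 and Ccl7. Cxcl1, Cxcl2 and Ccl20 are well-known targets of the NF-kappaB transcription factors, so the promoters were searched on both strands for the kappaB consensus. It was present in 2779 of 32851 promoters of equal length (8.46%), and among the 7 chemokines in Cxcl1, Cxcl2 and Ccl20. The 90 bases before the first annotated start of each are printed with the consensus in capitals, where Cxcl1 and Cxcl2 hold 2 overlapping matches each. They are chr5:90891151-90891240, chr5:90903781-90903870 and chr1:83116676-83116765, all on the plus strand.
Cxcl1: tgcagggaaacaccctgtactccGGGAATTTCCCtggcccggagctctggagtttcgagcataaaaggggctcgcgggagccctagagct
Cxcl2: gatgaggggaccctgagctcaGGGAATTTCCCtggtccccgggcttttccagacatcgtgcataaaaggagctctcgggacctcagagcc
Ccl20: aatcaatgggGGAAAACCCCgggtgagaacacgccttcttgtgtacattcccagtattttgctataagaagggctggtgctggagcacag
Cxcl1 and Cxcl2 share the whole stretch in capitals. Its first match to the consensus was found on either strand in 29 of the 32851 promoters (0.088%). A match is a description of the sequence and not evidence of binding.

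Cxcl14 held more UMIs than any other chemokine. Of the UMIs of 37 chemokine ligands in the matrices, its share was 50.4% in control cells and 71.7% in induced cells, and 99.6% and 99.0% of its UMIs came from epithelial cells. The 10 chemokines together held 58.3% and 82.1%. All ligands together held 66628 and 123412 UMIs, of which Ccl27a in epithelial cells had 24037 and 16573. The Ccl27a count is uncertain, as described below, so these shares are uncertain too. Source cells differed by gene. Cxcl14, Cxcl16, Ccl20 and Cx3cl1 came mainly from epithelial cells, with 89.0% or more of their UMIs there in each library. Cxcl12 UMIs were 19.8% epithelial in control cells and 71.6% in induced cells. Among 9 classes with at least 30 cells in each library, the class with the highest level was the same in both libraries for 3 of the 10 genes, Ccl7 (fibroblasts), Ccl20 (spinous cells) and Cx3cl1 (endothelial cells). With classes of at least 10 cells considered, which adds macrophages or dendritic cells, granular cells, sebaceous cells and Schwann cells, it was the same for 5 genes: Cxcl1, Cxcl2 and Cxcl16 (macrophages or dendritic cells), Ccl20 (granular cells) and Cx3cl1. Ccl7 was then led by macrophages or dendritic cells in the control library (44.1 CPM, 12 UMIs in 3 of 16 cells) and by fibroblasts in the induced library, where macrophages or dendritic cells stood at 85.7 CPM (41 UMIs in 2 of 26 cells). The leading class is the one with the highest value, also where intervals overlap. They did for Cxcl1 in both libraries and for Ccl20 in the control library.

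**Figure D1:**
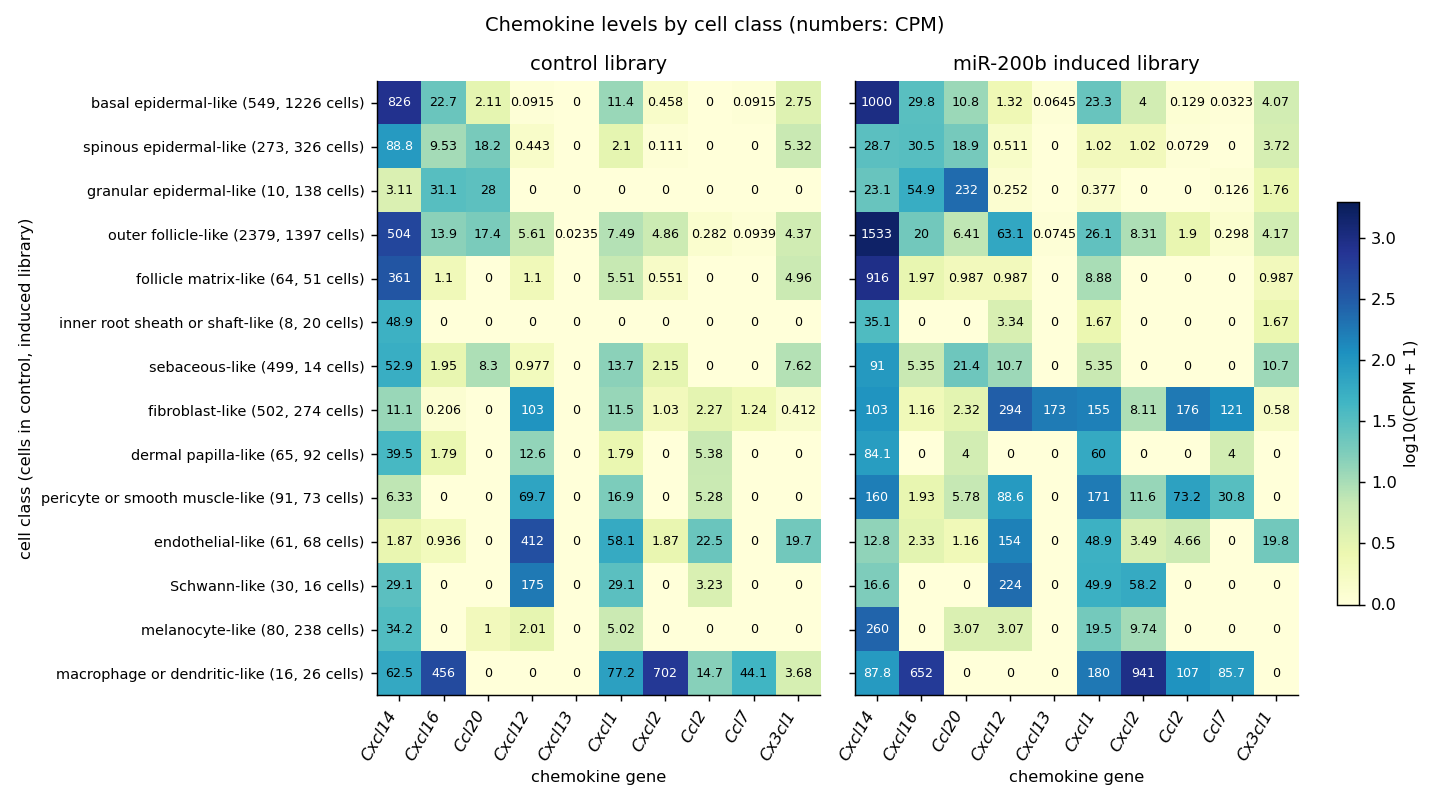
Level of each chemokine (columns, CPM printed in each field, colour on a log10(CPM + 1) scale) in each cell class (rows, with the number of cells in the control and the induced library). Cxcl14 fills the epithelial rows in both libraries, while Cxcl1, Cxcl13, Ccl2 and Ccl7 stand at 121 CPM or more in fibroblasts in the induced library only.

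A gene was called higher or lower in a class when its CPM, with 5 CPM added to both libraries, differed at least 2-fold. Genes needed 100 UMIs in the 2 libraries together and 20 CPM in the higher one. Over all epithelial cells (3971 and 4103), 2.69% of 6368 genes were called higher and 4.73% lower. Of the 10 chemokines 3 passed both minima, Cxcl14 was called higher and none lower. Cxcl16 (13.2 CPM and 27.1 CPM) and Ccl20 (13.4 CPM and 28.8 CPM) passed only through the induced library, so neither could be called lower. Cxcl1 and Cxcl12 had 100 UMIs or more but were under 20 CPM in both libraries. Cxcl16 and Ccl20 had log2 ratios of 0.82 and 0.87 after adding 5 CPM. The median log2 ratio of the 10 genes on that scale was 0.43, and that of all genes that passed both minima was -0.11. The 10 include genes that failed the minima, so the 2 medians cover unlike sets.

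Cxcl14 was highest in the epidermal basal layer of the control library and in the outer hair follicle of the induced library. Over all epithelial cells its level was 431 CPM in control and 892 CPM in induced cells, with a log2 ratio of 1.05 (1.03 to 1.07). The epithelial cells were made up differently in each library, with 549 and 1226 basal, 2379 and 1397 outer follicle and 499 and 14 sebaceous cells, so this pooled ratio mixes the make-up with the level. Basal cells stood at 826 CPM and 999.5 CPM, outer follicle cells at 504 CPM and 1533 CPM, and follicle matrix cells at 361 CPM and 916 CPM. The ratio was 1.21-fold in basal cells, 3.04-fold in outer follicle cells and 2.54-fold in matrix cells. The order of basal and outer follicle cells was inverted between the libraries, and in each library the intervals of these 2 classes did not overlap.

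The level also varied within the outer follicle. In the control library 12 outer follicle clusters of at least 15 cells ranged from 34.8 CPM to 3730.1 CPM with a median of 489 CPM. In the induced library 10 such clusters ranged from 202 CPM to 7551 CPM with a median of 1739.7 CPM, so the ranges overlapped. Both maxima belonged to the same cluster, E29, led by Nppc and Sfrp1, in which every cell of either library (107 and 19) held Cxcl14.

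Clusters with cells of both libraries allow a comparison within a cluster. Cxcl14 could be compared in 11 clusters with at least 15 cells of each library and at least 20 UMIs. Its level was higher in the induced library beyond the counting interval in 9 of them and lower in none. In the outer follicle cluster E21, led by Wfdc18, Krt6a and Cst6, it was 222 CPM and 674 CPM, in E29 3730.1 CPM and 7551 CPM, and in E34 434 CPM and 4307 CPM, the last value from 17 cells. In the outer follicle cluster E24, led by Krt75, it was 58.9 CPM and 271 CPM. The 2 clusters whose intervals spanned 0 were dermal papilla cells and macrophages or dendritic cells.

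Spinous cells went the other way. Cxcl14 stood at 88.8 CPM in 273 control cells and 28.7 CPM in 326 induced cells, a log2 ratio of -1.63 (-1.81 to -1.45). In spinous cells 6.25% of 5316 genes were called lower and 5.49% higher. Of the 2 chemokines that passed both minima there, Cxcl14 was called lower and Cxcl16 higher. Cxcl16 passed only through the induced library (9.53 CPM and 30.5 CPM), so it could be called in that direction alone. No spinous cluster held 15 cells of each library, so the cluster and the library cannot be told apart in that class. In basal cells 2.58% of 6014 genes were called higher, and 3.49% lower, but none of the 3 chemokines that passed both minima was called in either direction.

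The share of Cxcl14-positive cells was higher in the induced library at equal depth as well. After each cell was thinned to 2000 UMIs, the gene was found in 48.4% (46.83 to 49.98) of 3925 epithelial cells of the control and in 67.1% (65.5 to 68.5) of 3843 of the induced library, and without thinning in 79.6% and 87.8%. Endothelial cells, which should lack the gene, held a UMI of it in 0 of 59 thinned control cells and in 7.94% of 63 induced cells. The count of 0 allows up to 5.08% of cells with a UMI at that depth and sets no limit on cells expressing the gene. Their median depths were 13945 and 8709.5 UMIs, beside 16092 and 21143 UMIs in epithelial cells.

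Melanocytes of the induced library also held more Cxcl14. The level was 34.2 CPM in 80 control cells and 259.8 CPM in 238 induced cells, a log2 ratio of 2.93 (2.43 to 3.47), and 27.5% and 61.8% of the cells had a UMI. The 10 melanocyte markers moved in the same direction and sum to 13631 CPM and 25771 CPM. Relative to epithelial cells of the same library, melanocytes held 7.93% and 29.1% of the Cxcl14 level but 0.909% and 2.86% of the summed level of the keratins Krt5, Krt14 and Krt15. Endothelial cells held 0.435% and 1.44% of the Cxcl14 level, beside 1.55% and 1.62% of the keratin level. Cxcl16, another epithelial chemokine, was at 0 UMIs in melanocytes of both libraries. The part of free RNA in the melanocyte level was not tested.

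**Figure D2:**
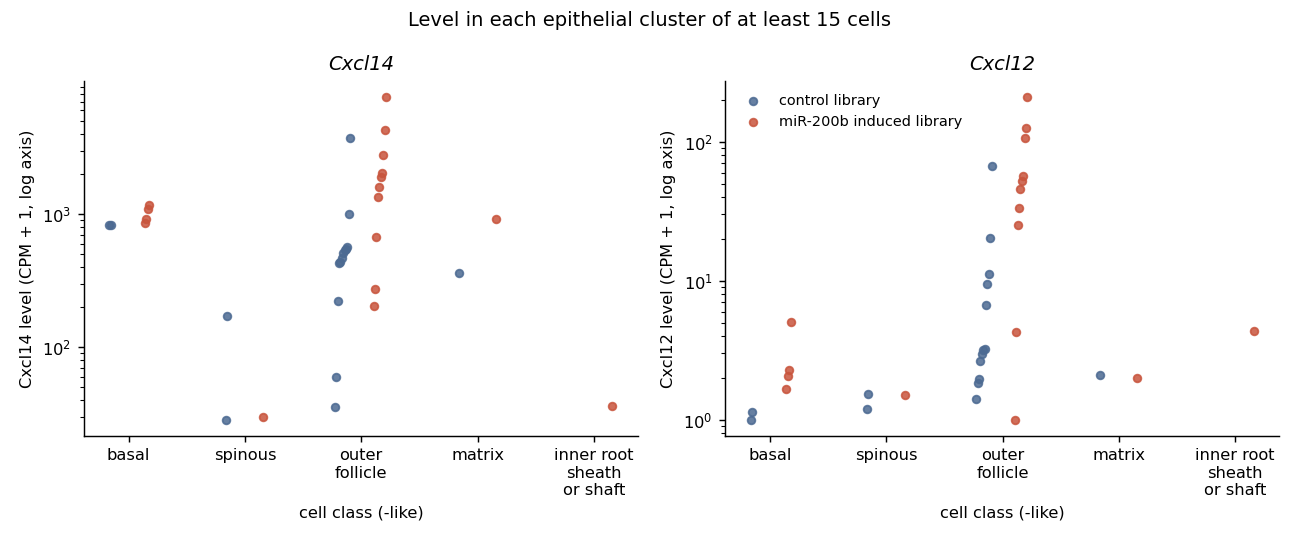
Level of Cxcl14 (left) and Cxcl12 (right) in basal, spinous, outer follicle, matrix and inner root sheath or shaft clusters of at least 15 cells, on log axes of CPM + 1, grouped by class, with 1 point per cluster and library. In the outer follicle the median over clusters is higher in the induced library for both genes, and the ranges overlap.

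Cxcl12, a stromal and endothelial chemokine, was higher in the outer hair follicle of the induced library. The level in outer follicle cells was 5.61 CPM (239 UMIs in 2379 cells) in control and 63.1 CPM (1693 UMIs in 1397 cells) in induced cells, with a log2 ratio of 3.49 (3.29 to 3.69). In outer follicle cells 2.54% of 6609 genes were called higher and 2.8% lower. Of the 4 chemokines that passed both minima, Cxcl1, Cxcl12 and Cxcl14 were called higher and none lower. Cxcl1 (7.49 CPM and 26.1 CPM), Cxcl12 and Cxcl16 (13.9 CPM and 20.04 CPM) passed only through the induced library, so none of the 3 could be called lower and the count carries little weight. Ccl20, which was lower in the induced library, stayed under the 20 CPM minimum. Cells with a Cxcl12 UMI were 136 of 2379 and 605 of 1397. After thinning, the gene was found in 1.10% (0.721 to 1.61) and 11.8% (10.2 to 13.7) of the cells.

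The Cxcl12 level differed between follicle clusters. In the control library it was 65.4 CPM in E21 and 0.400 to 19.1 CPM in the other 11 outer follicle clusters. In the induced library it reached 208 CPM in E27, a cluster led by the follicle genes Sfrp1, Tbx1, Lhx2 and Lgr5, 125 CPM in E21 and 106 CPM in E13, and it was 55.3 CPM or less in the other 7. E21 held both libraries (104 and 81 cells), and its log2 ratio was 0.94 (0.58 to 1.30). The shared cluster E24, with 69 and 94 cells, held 3 and 86 Cxcl12 UMIs, 0.829 CPM and 32.6 CPM.

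Fibroblast genes were read in these cells. The summed level of Col1a1, Col1a2 and Col3a1 in outer follicle cells was 0.104% of that of fibroblasts in the control and 0.0703% in the induced library. Cxcl12 there was 5.47% and 21.4% of the fibroblast level. The part of free fibroblast RNA in the Cxcl12 level was not tested. In basal epidermal cells Cxcl12 stood at 0.0915 CPM and 1.32 CPM. Cxcl12-positive epithelial cells of the induced library also held Cxcl14 in 97.6% (96.1 to 98.6) of cases, against 85.8% (84.6 to 86.9) of the other epithelial cells, which were deeper, with median depths of 16420 and 22099 UMIs. The intervals overlapped in control cells, where 80.8% (73.7 to 86.6) of the Cxcl12-positive and 79.6% (78.3 to 80.85) of the other epithelial cells held Cxcl14.

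Endothelial cells had the highest Cxcl12 level of the control library, 412 CPM (374 to 452), followed by Schwann cells at 175 CPM, fibroblasts at 103 CPM and pericytes or smooth muscle cells at 69.7 CPM, and none of these neighbours had overlapping intervals. In the induced library endothelial cells stood at 154 CPM (129 to 182), a log2 ratio of -1.42 (-1.71 to -1.14). A list of 20 immediate early genes, which mark stress and tissue dissociation, summed to 9869 CPM and 17414 CPM in these cells. Of the 19 that passed both minima, 4 were called higher and none lower, beside 4.68% and 7.41% of 3267 genes. The part of this stress in the Cxcl12 level was not tested. The induced endothelial class held cells with lymphatic markers: the 7 lymphatic genes sum to 30.0 CPM in the control, where 4 of them, Prox1 included, were at 0, and to 584 CPM in the induced library. Ccl21a, the lymphatic chemokine, was at 0 UMIs in the control and at 846 UMIs in 7 of 68 cells in the induced library. None of those 7 cells held a Cxcl12 UMI. Without them the level was 168 CPM and the log2 ratio -1.29 (-1.58 to -1.01), a comparison chosen after seeing the data. Pericytes or smooth muscle cells stood at 69.7 CPM and 88.6 CPM, with a ratio whose interval spanned 0 (0.35, from -0.23 to 0.91).

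Cxcl16 and Ccl20 were highest in granular cells among the epidermal layers of the induced library. Cxcl16 stood at 22.7 CPM, 9.53 CPM and 31.1 CPM in basal, spinous and granular cells of the control library, and at 29.8 CPM, 30.5 CPM and 54.9 CPM in the induced library. In the induced library the interval of granular cells lay above the others, while those of basal and spinous cells overlapped. In the control library spinous cells were lowest, and the granular value came from 10 cells. The ratio between libraries was 3.20-fold in spinous cells, a log2 ratio of 1.68 (1.34 to 2.03), and 1.31-fold in basal cells.

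Macrophages or dendritic cells had the highest Cxcl16 level of any class, 456 CPM in 16 control cells and 652 CPM in 26 induced cells. Cxcl16 was found in 11 of the 16 and 22 of the 26 cells. Over all epithelial cells the level was 13.2 CPM and 27.1 CPM, spread over many cells: 671 of 3971 and 1416 of 4103 cells held it, with at most 12 UMIs in a cell in either library. After thinning, 2.75% and 4.68% of epithelial cells held it, and melanocytes, which should lack it, held 0 in 80 and 235 thinned cells.

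Ccl20 had a different distribution, in which few cells held most of the RNA. Over all epithelial cells the level was 13.4 CPM and 28.8 CPM, a 2.14-fold ratio, and 95 and 247 cells held the gene. The top cells dominated: 8 control cells and 6 induced cells held at least as many UMIs as all other epithelial cells of their library. In granular cells the level was 28.0 CPM (18 UMIs, 10 cells) and 232 CPM (1848 UMIs, 138 cells), with 32 of the 138 cells positive and 431 UMIs in 1 cell. The granular class itself differed between the libraries: its 14 markers sum to 136835 CPM in the 10 control cells and to 20562 CPM in the 138 induced cells. The part of that difference in the Ccl20 values was not tested. Spinous cells stood at 18.2 CPM and 18.9 CPM and basal cells at 2.11 CPM and 10.8 CPM.

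In the outer follicle Ccl20 went the opposite way, with 17.4 CPM in control and 6.41 CPM in induced cells, a log2 ratio of -1.44 (-1.69 to -1.202). Most of the control UMIs came from cluster E20 (446 of 742 UMIs, 89.1 CPM), led by Krt77, Defb6 and Calm4, of which the induced library held 7 cells. In the shared cluster E21 the control library held 1 UMI and the induced library 42 UMIs, and in E24 these were 4 and 19 UMIs. The direction over the outer follicle thus differed from that in the clusters that both libraries shared.

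**Figure D3:**
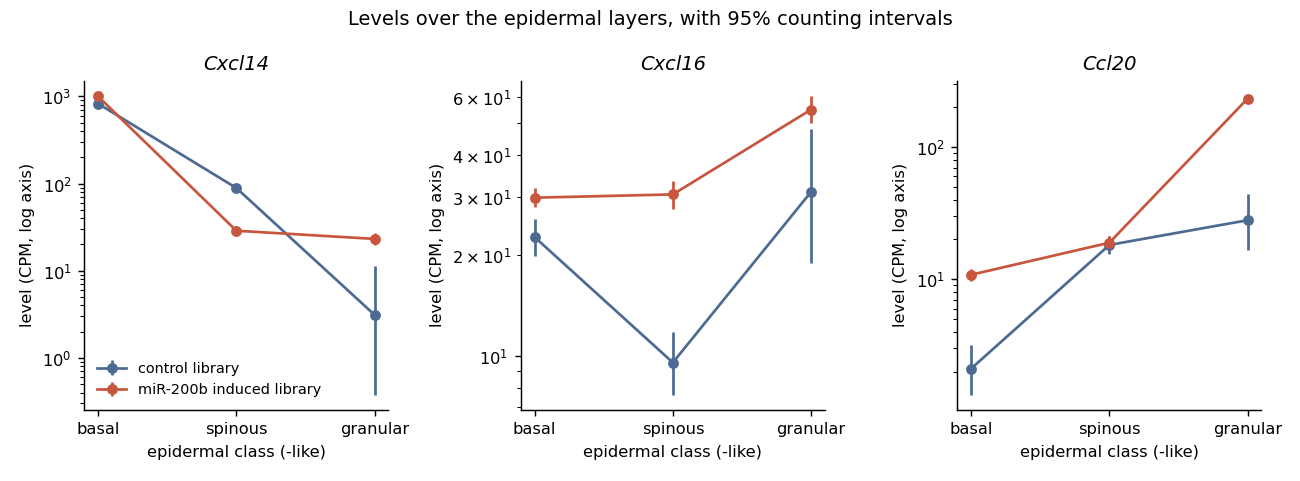
Level of Cxcl14, Cxcl16 and Ccl20 in basal, spinous and granular cells, on log axes of CPM, with 95% counting intervals and 1 line per library. Cxcl14 is highest in basal cells in both libraries (826 CPM and 999.5 CPM). Ccl20 has its highest value in granular cells (28.0 CPM and 232 CPM). The control granular value comes from 10 cells, and its interval overlaps that of spinous cells.

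Cxcl1 and Cxcl2, the neutrophil attractants, were low in epithelial cells. Cxcl1 stood at 8.10 CPM and 16.04 CPM over epithelial cells, with 246 and 543 positive cells. Cxcl2 stood at 3.07 CPM and 4.06 CPM, with 48 and 102 positive cells, and 3 and 10 cells held at least as many UMIs as the rest. In E24, the single epithelial cluster in which Cxcl2 could be compared between the libraries, it was lower in the induced cells, with 17.4 CPM and 2.27 CPM (63 and 6 UMIs) and a log2 ratio of -2.94 (-4.44 to -1.74). These UMIs lay in 4 of 69 and 2 of 94 cells. Cxcl2 was found in 10.2% (6.69 to 14.6) of Cxcl1-positive and 0.617% (0.392 to 0.925) of Cxcl1-negative control epithelial cells. In the induced library these shares were 9.76% (7.40 to 12.6) and 1.38% (1.02 to 1.82). The Cxcl2 share was thus higher among Cxcl1-positive cells in both libraries, but most cells with Cxcl1 lacked Cxcl2 (25 of 246 and 53 of 543 held both). Cxcl1-positive cells were also deeper, with medians of 18486 and 15846 UMIs in the control and 24483 and 20234 UMIs in the induced library.

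Outside the epithelium Cxcl1 had its highest value in macrophages or dendritic cells in both libraries. It was 77.2 CPM (47.8 to 118) in 16 control cells and 179.8 CPM (143.9 to 222) in 26 induced cells, a log2 ratio of 1.22 (0.52 to 1.98). Only 3 cells in each library held these UMIs. The control interval overlapped that of endothelial cells, and the induced interval included the values of mural cells and fibroblasts. Cxcl1 was thus also high in mural cells and fibroblasts of the induced library. Pericytes or smooth muscle cells held 16.9 CPM and 171 CPM, and in their shared cluster N25 (52 and 46 cells) the levels were 23.0 CPM and 314 CPM, a log2 ratio of 3.77 (2.98 to 4.65). Endothelial cells held 58.1 CPM and 48.9 CPM, with intervals that overlapped. Cxcl2 had its highest level in macrophages or dendritic cells, at 702 CPM and 941 CPM, in 10 of 16 and 8 of 26 cells. They held 191 of 436 and 450 of 898 Cxcl2 UMIs, while the far more numerous epithelial cells held 54.6% and 44.4%. Its level there differed 1.34-fold, while 2 cells in each library held at least as many UMIs as all others.

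Ccl2 and Ccl7, the monocyte attractants, and the B cell chemokine Cxcl13 were almost silent in control fibroblasts and present in a few induced fibroblasts. Ccl2 had 11 UMIs in 502 control fibroblasts (2.27 CPM) and 304 UMIs in 274 induced fibroblasts (176 CPM), a log2 ratio of 6.28 (5.42 to 7.30). Ccl7 had 6 and 208 UMIs (1.24 CPM and 121 CPM). Cxcl13 had 0 UMIs in control fibroblasts and 298 in induced fibroblasts (173 CPM), a log2 ratio with a lower limit of 7.82. All 298 lay in cluster N27, described below, which held 75 induced but only 3 control cells. The ratio thus does not compare like cells. Over all cells of the control library Cxcl13 had 1 UMI.

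Few cells carried these transcripts. Ccl2 was found in 26 of the 274 induced fibroblasts, Ccl7 in 17 and Cxcl13 in 13. For Ccl2 4 cells, and for Ccl7 and Cxcl13 3 cells each, held at least as many UMIs as all others. Ccl7 was found in 42.3% (23.4 to 63.1) of Ccl2-positive and 2.42% (0.893 to 5.19) of Ccl2-negative induced fibroblasts. Cxcl13 was found in 7.69% (0.946 to 25.1) and 4.44% (2.24 to 7.80) of these cells, and the intervals overlapped. Cxcl1 was found in the same 42.3% share of Ccl2-positive cells (11 of 26) and in 8.47% (5.32 to 12.7) of Ccl2-negative cells. In control fibroblasts none of the 8 Ccl2-positive cells held Ccl7. Depth moved with these shares in the induced library, with medians of 8210 UMIs in Ccl2-positive and 5617.5 UMIs in Ccl2-negative cells.

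In fibroblasts 4.61% of 6614 genes were called higher and 3.51% lower. Of the 10 chemokines 6 passed both minima, and Cxcl1, Cxcl12, Cxcl13, Cxcl14, Ccl2 and Ccl7 were all called higher. Of these 6 all but Cxcl12 reached the minimum level only through the induced library, where they were high, so the count carries little weight. With 5 CPM added, the median log2 ratio of the 10 genes was 2.11, and that of all genes that passed both minima was -0.0029. The 10 include genes that failed the minima, so the 2 medians cover unlike sets and their difference carries little weight.

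The fibroblast class joined clusters of unequal origin. N2 held 499 control and 199 induced cells, and N27 held 3 control and 75 induced cells. N27 expressed the 11 markers of the adipocyte lineage at a summed 10451 CPM in the induced library, led by Lpl and Cfd, beside 229 CPM and 332 CPM in N2, and its 12 fibroblast markers at 34627 CPM. In N2 these 12 markers sum to 77448 CPM in control and 47871 CPM in induced cells, so the fibroblast marker level moved with the N2 comparisons as well, and its part in them was not tested. All 298 Cxcl13 UMIs lay in N27. Ccl2 stood at 344 CPM in N27 and at 2.28 CPM and 76.6 CPM in N2, and Ccl7 at 239.8 CPM in N27 and at 1.04 CPM and 49.8 CPM in N2. Cxcl1 stood at 11.6 CPM and 44.3 CPM in N2, where 1 control cell held 33 of the 56 UMIs.

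Within N2 alone the difference in Cxcl12 was reversed. Its level was 102 CPM in control and 64.6 CPM in induced cells, with a log2 ratio of -0.66 (-1.04 to -0.29), and 682 CPM in the induced cells of N27, against 103 CPM and 294 CPM over the whole class. In N2 alone, chosen after seeing the data, 2.96% of 6452 genes were called higher. The 2 chemokines that passed both minima there were Cxcl1, which was called higher but passed only through the induced library, and Cxcl12, which was not called. Ccl2 and Ccl7 had log2 ratios of 5.07 (4.16 to 6.13) and 5.59 (4.28 to 7.27) in N2, but under 100 UMIs. These ratios rested on few cells: Ccl7 was found in 3 of 499 control and 3 of 199 induced N2 cells, with 54 UMIs in the latter, and Ccl2 in 8 and 9 cells.

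**Figure D4:**
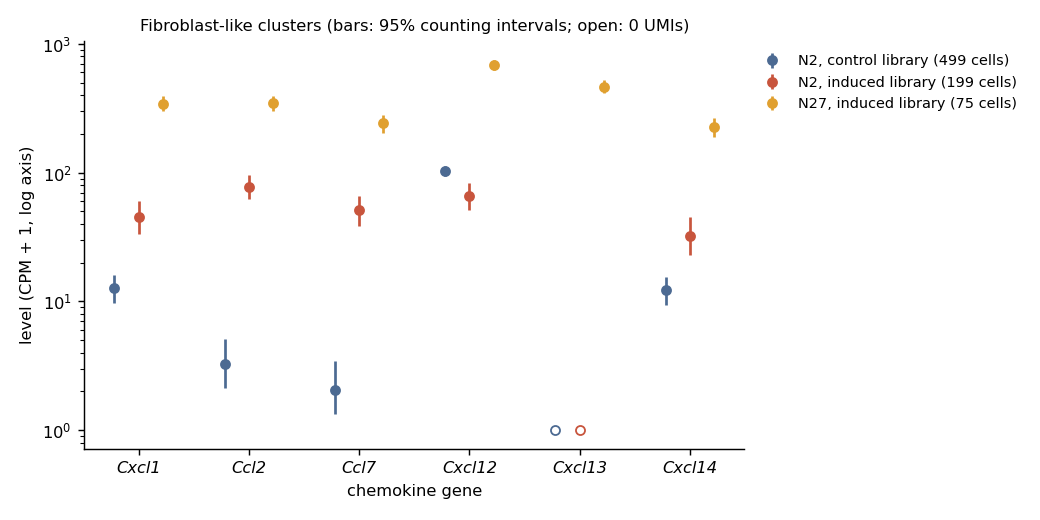
Levels of 6 chemokines in the fibroblast clusters N2 (control and induced library) and N27 (induced library), on a log axis of CPM + 1, with 95% counting intervals and open symbols for 0 UMIs. Cxcl1, Ccl2 and Ccl7 are higher in the induced than in the control cells of N2 and highest in N27, while Cxcl12 is lower in the induced cells of N2.

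Immediate early genes, whose RNA is raised within minutes by stress and by tissue dissociation, moved with these chemokines in fibroblasts. Of 20 such genes 18 passed both minima, and all 18 were called higher in induced fibroblasts, with a median log2 ratio of 2.05. Of the 18, Atf3 and Nr4a1 passed only through the induced library. Their summed level was 4032 CPM and 14879 CPM, and 4048 CPM and 14157 CPM in N2 alone. Zfp36, which codes for an RNA decay factor, stood at 38.7 CPM and 334 CPM, and Nr4a1 at 10.3 CPM and 111 CPM. Median depth was lower in the induced fibroblasts, 9243.5 and 6029 UMIs. The part of dissociation stress in the chemokine levels was not tested.

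The same 20 genes were read in epithelial cells. Over all epithelial cells none was called higher and 2 were called lower, beside 2.69% and 4.73% of all genes that passed. Their summed levels were 13863 CPM and 11668 CPM over the 20 genes. In outer follicle cells none was called, beside 2.54% of genes higher and 2.8% lower, with sums of 14368 CPM and 13696 CPM. In basal cells none of 19 was called higher and 9 were called lower, Fosb and Atf3 among them. Over all genes these shares were 2.58% and 3.49%. The part of dissociation stress in the epithelial chemokine levels was not tested.

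Immune markers were read in the fibroblasts that held Ccl2 or Ccl7. The 10 induced N2 cells with a Ccl2 or Ccl7 UMI held no UMI of the pan-leukocyte gene Ptprc, and 13 of 14 macrophage or dendritic markers were at 0, with a summed level of 138 CPM (10 UMIs), beside 5.94 CPM in the other induced N2 cells. In the 22 such cells of N27 Ptprc was at 0 as well, 12 of the 14 markers were at 0, and the sum was 12.3 CPM, beside 17.6 CPM in the other N27 cells. The part of immune RNA in the N2 values was not tested. Macrophages or dendritic cells themselves held Ccl2 at 14.7 CPM and 107 CPM, 42 of the 51 induced UMIs in 1 cell. Pericytes or smooth muscle cells held Ccl2 at 5.28 CPM and 73.2 CPM, 25 of the 38 induced UMIs in 1 cell.

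Other classes held Ccl2 as well. In the control library endothelial cells held more Ccl2 UMIs than fibroblasts (24 and 11). Endothelial cells held 22.5 CPM in the control and 4.66 CPM in the induced library (24 and 4 UMIs), with 18 of the 24 control UMIs in 1 cell. In the induced outer follicle 1 cell held 47 of the 51 Ccl2 UMIs.

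Cx3cl1, the membrane-bound chemokine of vessels and epithelia, stood close together in the 2 libraries. Its level was 19.7 CPM and 19.8 CPM in endothelial cells, with a log2 ratio of 0.01 (-1.003 to 1.003). In epithelial cells it stood at 4.66 CPM and 3.80 CPM, in 296 and 331 cells, a log2 ratio of -0.30 (-0.51 to -0.08). At 21 and 17 UMIs a 2-fold difference in either direction in endothelial cells would barely be detectable.

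**Figure D5:**
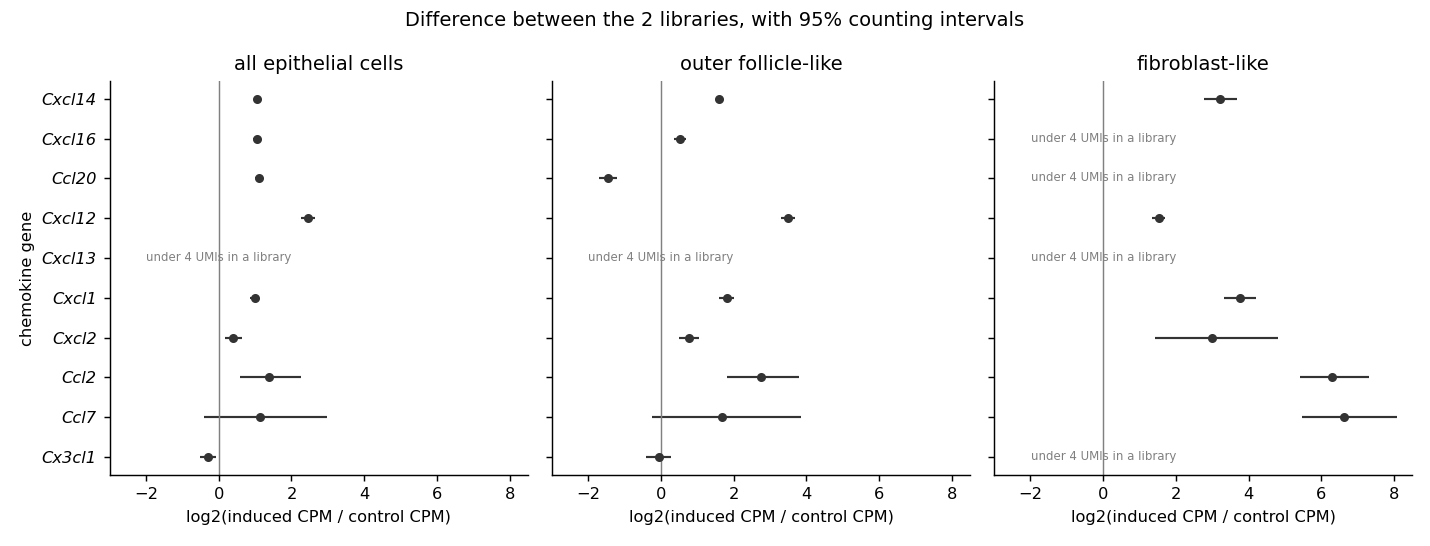
Log2 ratio of the induced to the control library for each chemokine over all epithelial cells, outer follicle cells and fibroblasts, with 95% counting intervals. Genes with under 4 UMIs in a library are not drawn. Cx3cl1 lies near 0 in epithelial and outer follicle cells, and Ccl20 is lower in the outer follicle. Of the genes drawn for fibroblasts, Ccl2 and Ccl7 have the highest ratios, while Cxcl13, with 0 control UMIs, is not drawn.

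Receptors for these ligands were read from a list of 22 genes. Cxcr4, the Cxcl12 receptor, was at 82.5 CPM and 72.1 CPM in dermal papilla cells and 43.1 CPM and 31.4 CPM in endothelial cells. In the outer follicle its level was under the minimum in both libraries, with 13.1 CPM and 2.42 CPM. Over all epithelial cells 1 receptor gene passed both minima, the scavenger receptor Ackr4, and it was called lower, at 25.3 CPM and 8.55 CPM. In basal cells both receptors that passed both minima were called lower: Ackr4 stood at 66.5 CPM and 12.9 CPM, and Ackr3, a scavenger receptor that binds Cxcl12, at 52.6 CPM and 23.7 CPM. In both comparisons Ackr4 passed only through the control library. The 13 basal markers sum to 49282 CPM in control and 27596 CPM in induced basal cells, so they moved with the basal values, and their part in them was not tested. In fibroblasts the same 2 genes were not called, at 72.5 CPM and 46.4 CPM for Ackr4 and 31.9 CPM and 52.7 CPM for Ackr3.

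Leukocyte receptors were read in macrophages or dendritic cells, with 16 and 26 cells. Ccr2, the receptor of Ccl2 and Ccl7, stood at 206 CPM and 174 CPM. Ccr1 stood at 88.2 CPM and 194 CPM. Cx3cr1, the Cx3cl1 receptor, stood at 232 CPM and 39.7 CPM, and Ccr6, the Ccl20 receptor, at 14.7 CPM and 43.9 CPM (4 and 21 UMIs).

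Other chemokine ligands and the genes of NF-kappaB feedback gave the context of these levels. Of the 27 other ligands in the matrices, 2 passed both minima in epithelial cells and none was called. Ccl27a, a keratinocyte chemokine with near-identical gene copies among which reads can be split, stood at 310 CPM and 169 CPM and is therefore uncertain. In basal cells it was called lower, at 755 CPM and 187 CPM. In fibroblasts 1 of 2 ligands that passed both minima was called higher, Cxcl5, a further chemokine of neutrophils, with 0.206 CPM (1 UMI) and 83.5 CPM (144 UMIs). It passed only through the induced library, and in N2, the cluster that both libraries shared, it had 1 and 2 UMIs. Of 24 NF-kappaB feedback and inflammatory genes, 7 passed both minima in fibroblasts and 4 were called higher. Of the 7, Nfkbiz (called, 9.06 CPM and 35.9 CPM) and Relb (not called, 12.1 CPM and 26.7 CPM) passed only through the induced library. Nfkbia, the inhibitor of NF-kappaB, stood at 44.7 CPM and 251 CPM and Socs3 at 30.9 CPM and 223 CPM. In epithelial cells 1 of 10 was called higher, Zc3h12a, which passed only through the induced library (10.1 CPM and 42.8 CPM), and Nfkbia stood at 503 CPM and 565 CPM.

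Some genes shared the pattern of a chemokine over clusters of at least 30 cells (28 in the control and 26 in the induced library, 10283 genes compared). The measure was the Pearson correlation of log2(CPM + 5), taking the lower of the 2 libraries. Clusters of a library share its depth and composition, so these values are descriptions only. Cxcl14 was closest to Ntf5 (0.905 in the control and 0.912 in the induced library). Cxcl16 was closest to Pkp3, a desmosome gene (0.812 and 0.820), and Urah (0.849 and 0.806). Ccl2 was closest to Adam12 (0.804 and 0.893) and Ecm2 (0.804 and 0.902), and Ccl20 to Rgs20 (0.734 and 0.803) and Casp14, a caspase of the cornified layer (0.733 and 0.750). Cxcl12 was closest to Igfbp7 (0.735 and 0.765) and Leprot (0.729 and 0.739). For Cxcl1 the closest were Samhd1 (0.717 and 0.848) and Irf1, an interferon response factor (0.737 and 0.716), and for Cx3cl1 they were Sigirr (0.688 and 0.739) and F11r (0.728 and 0.680). Ccl7 was closest to Podn (0.557 and 0.762) and C1qtnf3 (0.552 and 0.875). Cxcl2 was closest to Tnfaip3, an inhibitor of NF-kappaB signalling (0.529 and 0.524), and Ddit3 (0.404 and 0.517). Cxcl13, with 1 control UMI, was closest to Ddit3 (0.449 and 0.458) and Fbxo33 (0.358 and 0.445).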

How the data were processed

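The deposited values are raw counts of UMIs per gene and barcode from 10x Genomics 3′ v3.1 libraries, made by the authors with Cell Ranger 6.0.0 on mm10, per the submitters' processing notes. The deposited gene and barcode lists are names with no score or other value. The 2 libraries held 9072 and 9114 barcodes and 100409201 and 119705137 UMIs.

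Barcodes with at least 1000 UMIs, at least 500 genes and under 15% mitochondrial UMIs were kept (5178 and 5258). The automatic Scrublet threshold marked 3 and 2 cells (0.058% and 0.038%) and was not usable, so the 7% with the highest scores were removed (362 and 368). Clustering took the remaining cells of the 2 libraries jointly, with no integration (scanpy 1.11.5, leidenalg 0.10.2, 2000 variable genes, 30 components, 15 exact neighbours, resolution 1.0, epithelial cells again at 2.0). Chemokines, their receptors and the genes of the pathway lists were left out of clustering. Clusters with over 3000 CPM of keratins were called epithelial. A name needed at least 3 markers detected in 25% of the cells and raised 1.5-fold with 20 CPM added. Dermal papilla cells were mostly 1 shallow cluster with a median of 1778 UMIs in its larger library.

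UMIs were summed per class and library. Intervals of levels are exact Poisson, of ratios exact conditional binomial and of shares exact Clopper-Pearson intervals at 95%, and the limit for 0 counts is 3 counts. They cover counting error only. The script that calls genes was tested on simulated data. Named genes were the 10 chemokines, list genes with at least 50 CPM in the higher library (up to 4 per list and class by largest ratio), and the 2 genes most alike to each chemokine. Some genes that this rule names are not reported here. The chemokines and the lists were chosen with earlier results of these data known. Alternatives changed doublet removal, cell filter, resolution, library centring, totals, thinning, added CPM and minimum level. Tables were handled in pandas 2.3.3 under Python 3.11.15, intervals in scipy 1.17.1 with numpy 2.4.6, and figures in matplotlib 3.10.9.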

Additional observations from a re-analysis of the deposited data

How the results depend on the processing

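No paired analysis was possible because each group held 1 library. In epithelial cells 1 chemokine, Cxcl14, was called at 2-fold after both minima. The number was 2 with doublets kept or 1 CPM added (Ccl20 as well), and 2 with totals without the 50 most abundant genes, with cells thinned to 2000 UMIs or with no minimum level (Cxcl12 as well). In fibroblasts the number was 6. It was 1 without cluster N27 (Cxcl1) and 1 after thinning (Cxcl12), where fewer genes reached the minimum of 100 UMIs. The number of chemokines with the same leading class in both libraries was 3 and became 5 with classes of at least 10 cells. Without N27 the log2 ratio of Cxcl12 in fibroblasts, with 5 CPM added, was -0.62 in place of 1.48, and that of Cxcl13 was 0.0. All other log2 ratios followed here kept their sign under the 11 or 12 alternatives run. Cxcl14 in epithelial cells ranged from 1.01 to 1.11, and Ccl2 in fibroblasts from 2.81 to 5.76. The alternatives on clusters N27, E15 and E17, on pooled dermal cells and on Ccl21a-positive cells were chosen after seeing the data. Depth limits Cx3cl1 outside epithelium, and the chemokines of the 16 and 26 macrophages or dendritic cells.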

Other observations

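Macrophages or dendritic cells differed in several chemokines and cytokines not described above, over 16 control and 26 induced cells. Ccl17, a chemokine of dendritic cells, had 0 control UMIs and 162 induced UMIs (339 CPM). Cxcl10, an interferon-induced chemokine, stood at 7.35 CPM and 151 CPM (2 and 72 UMIs), and Ccl12 at 3.68 CPM and 75.3 CPM (1 and 36 UMIs). Il1b, an inflammatory cytokine, stood at 91.9 CPM and 1432 CPM, and Tnf at 66.2 CPM and 217 CPM. Ppbp, a platelet chemokine, went the other way, with 35 control UMIs and 0 induced UMIs. In endothelial cells Cxcl10 stood at 313 CPM and 25.6 CPM (334 and 22 UMIs), and Csf3, the neutrophil growth factor, at 1.87 CPM and 122 CPM (2 and 105 UMIs). Ccl17, Cxcl10, Ccl12, Ppbp and Csf3 were chosen after their values were seen. These are values of single libraries with few cells, and no explanation was tested.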
